A study of Mus musculus with 29 samples.

Results

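The genes described here carry the names of Rab GTPases and of the sorting machinery of the endosomal system. A name alone, such as Vps72 or Rab5if, does not show that a member acts there. The members were taken by symbol from the genes measured in sorted pyramidal neurons: names that begin with Rab and a digit, Tbc1d, Vps and a digit, Snx and a digit, or a subunit name of the adaptor complexes AP-1 to AP-5, without pseudogenes. The rule used no measured value. It found 150 of 9872 measured genes in the amygdala and 116 of 6080 in the medial prefrontal cortex, 157 genes in either region and 109 in both, out of 191 protein-coding genes of the mouse annotation that match the names. Of the 59 annotated Rab GTPases, 38 were measured in the amygdala and 31 in the medial prefrontal cortex. The other subfamilies in the amygdala were 8 Rab regulators and effectors, 24 Tbc1d genes, 27 sorting nexins, 32 Vps genes and 21 adaptor subunits.

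Rab GTPases switch between a membrane-bound active form and an inactive form, and each labels a step of transport: Rab5 early endosomes, Rab7 late endosomes, Rab11 recycling endosomes, Rab3 secretory and synaptic vesicles, Rab6 the Golgi apparatus. TBC-domain proteins (Tbc1d) switch Rabs off, sorting nexins and the retromer return cargo from endosomes, and the HOPS, CORVET and ESCRT complexes fuse endosomes and sort cargo to lysosomes. Adaptor complexes pick cargo for coated vesicles. AP-2 works at the plasma membrane, where neurons retrieve synaptic vesicle proteins and internalise receptors, and AP-1 and AP-3 work at the trans-Golgi network and endosomes.

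The study crossed a group label, Res-T or Sus-T, with a condition, without or with trauma, in mice named B6.Cg-Tg(Thy1-YFP)HJrs/J, in which a Thy1 promoter drives yellow fluorescent protein in a subset of neurons. Every group carried that transgene, and no other allele or agent was named. Amygdala libraries numbered 3 Res-T without trauma, 2 Sus-T without trauma, 4 Res-T with trauma and 4 Sus-T with trauma, and prefrontal libraries numbered 4, 2, 3 and 4 in that order. The labels listed 29 samples, of which 3 were marked as left out of the submitters' differential expression analysis and were not analysed here. The labels did not say that each library came from its own animal, and 9 mice were mentioned for the 13 amygdala libraries, so the p-values measure the spread between libraries, part of which may be technical. Values are given in the order of the labels' replicate numbers, where amygdala and prefrontal Sus-T without trauma hold replicates 1 and 3 and prefrontal Res-T with trauma holds 1, 3 and 4.

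Deposited values were normalized by the authors to an unstated scale, and are called normalized values (arbitrary units). They summed to between 3267967 and 4021272 per amygdala library and between 2095138 and 2444486 per prefrontal library, and the read depth behind them is unknown. Groups were compared with limma on log2(value + 1) over all genes of a region, and "called" means an adjusted p under 0.05 (Benjamini-Hochberg over all genes). Every log2 difference and fold below is on that scale, which understates the change of low genes. In bulk libraries, fewer cells of a type and less RNA per cell cannot be told apart.

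The sorted cell type was checked against markers. Of 10 pyramidal neuron markers, 2 (Camk2n1 and Nrgn) were measured in the amygdala and 0 among prefrontal genes, so the label could be checked in part in 1 region. Their sum was 0.00347% to 0.00574% of the library total in Res-T without trauma, 0.0431% to 0.0545% in Sus-T without trauma, 0.0126% to 0.0283% in Res-T with trauma and 0.0265% to 0.119% in Sus-T with trauma. The other 8, among them the glutamate transporters Slc17a6 and Slc17a7, were not among the amygdala genes analysed here. Of 9 GABAergic interneuron markers, 2 (Erbb4 and Dlx1) were measured in the amygdala. Without trauma their sum was 0.0322% to 0.0374% in Res-T and 0.0231% to 0.025% in Sus-T. With trauma it was 0.0211% to 0.0287% in Res-T and 0.0204% to 0.0331% in Sus-T. Oligodendrocyte markers made up a share of every library's total that differed between groups. In the amygdala, 17 of 18 markers were measured and their sum was 6.13% to 7.20% in Res-T without trauma, 1.93% to 2.89% in Sus-T without trauma, 4.60% to 5.82% in Res-T with trauma and 3.94% to 5.27% in Sus-T with trauma. In the prefrontal cortex, 11 of 18 were measured and the sum was 3.19% to 8.52% in Res-T without trauma, 2.52% to 3.63% in Sus-T without trauma, 5.26% to 7.35% in Res-T with trauma and 2.61% to 4.45% in Sus-T with trauma. The 8.52% belonged to replicate 4 of prefrontal Res-T without trauma, which stood apart from the other 3 libraries of its group. The part of these shares in the differences below was not tested apart from a covariate fit, whose counts are given beside the comparisons that called members.

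Of the 157 genes, 123 had a promoter window in the RefSeq table for GRCm38.p6. Promoters are shown for 5 of the 10 genes that were called in both regions: Ap1b1, higher in Sus-T, and Snx30, Snx33, Tbc1d5 and Rab3gap1, lower in Sus-T. These 5 have a window that ends before the gene start of the GENCODE annotation. Tbc1d5 has a second window inside the gene, which is not printed. Each window holds the 250 bases before the start and runs 5′ to 3′ on the gene's own strand. Capitals mark GGGCGG (the GC box), CCAAT or CACGTG (an E-box), searched on both strands. A match on the other strand appears as its reverse complement, and the matches shown do not overlap.
Ap1b1 (chr11:4986574-4986823, plus strand): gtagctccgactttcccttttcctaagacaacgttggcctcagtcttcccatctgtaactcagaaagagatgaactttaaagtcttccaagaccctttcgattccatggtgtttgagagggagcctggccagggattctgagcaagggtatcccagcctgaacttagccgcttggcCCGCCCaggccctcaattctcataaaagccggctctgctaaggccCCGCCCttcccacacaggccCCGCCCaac
Rab3gap1 (chr1:127868523-127868772, plus strand): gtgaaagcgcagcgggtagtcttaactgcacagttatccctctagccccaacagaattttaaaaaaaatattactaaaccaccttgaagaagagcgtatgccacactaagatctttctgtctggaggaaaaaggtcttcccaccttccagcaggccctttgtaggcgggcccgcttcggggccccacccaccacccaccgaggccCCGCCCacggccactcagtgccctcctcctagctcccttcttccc
Snx30 (chr4:59805400-59805649, plus strand): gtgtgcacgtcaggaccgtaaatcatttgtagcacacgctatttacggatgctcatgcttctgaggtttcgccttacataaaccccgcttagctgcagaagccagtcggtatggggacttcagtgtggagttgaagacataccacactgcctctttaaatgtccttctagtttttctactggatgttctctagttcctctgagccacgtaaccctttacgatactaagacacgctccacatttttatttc
Snx33 (chr9:56928372-56928621, minus strand): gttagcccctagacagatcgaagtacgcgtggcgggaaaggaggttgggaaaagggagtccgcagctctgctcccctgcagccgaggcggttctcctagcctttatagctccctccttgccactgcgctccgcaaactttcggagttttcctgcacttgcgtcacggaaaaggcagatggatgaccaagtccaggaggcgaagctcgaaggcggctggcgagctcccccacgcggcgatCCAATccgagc
Tbc1d5 (chr17:51179353-51179602, minus strand): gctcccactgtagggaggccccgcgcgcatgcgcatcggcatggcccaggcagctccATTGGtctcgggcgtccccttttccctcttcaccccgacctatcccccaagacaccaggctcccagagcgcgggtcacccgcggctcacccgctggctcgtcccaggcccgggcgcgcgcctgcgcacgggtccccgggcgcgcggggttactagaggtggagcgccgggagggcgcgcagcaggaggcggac
The Ap1b1 window held GGGCGG 3 times and the Rab3gap1 window held it 1 time. The Snx33 window and the Tbc1d5 window shown held CCAAT 1 time each and no GGGCGG, the Tbc1d5 window not shown held CCAAT 1 time and GGGCGG 1 time, and the Snx30 window held 0 matches to these 3 motifs. Over the 123 members with a window, 74.8% had GGGCGG in at least 1 window, beside 64.9% of 8306 measured genes with a window and 35.4% of all 27025 genes in the table. CCAAT stood at 39.8%, 41.1% and 37.5%, and CACGTG at 13.8%, 9.92% and 6.86%. A match describes letters in the window and not a site in use.

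The first comparison set Sus-T against Res-T in the amygdala without trauma. Higher in Sus-T were 3 of 5 AP-2 adaptor subunits, 7 of 38 Rab GTPases, among them Rab3c and Rab6b, and 3 of 24 TBC genes. Lower were 5 of 27 sorting nexins, led by Snx33, and 5 other TBC genes. In all, 28 of the 150 members were called, 16 higher and 12 lower, which is 18.7% beside 27.4% of all 9872 genes (2706; 12.4% higher and 15% lower). The members thus held a smaller share of calls than the table as a whole. Their median log2 difference was 0.08, beside −0.03 over all genes, and in 46 members every Sus-T library lay above every Res-T library and in 37 below, which over all genes happened in 27.7% and 31.3%.

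Adaptor subunits were called in 1 direction, 4 higher and 0 lower of 21. Ap2a2 (chr7:141562173-141633011, plus strand), the alpha-2 large subunit of AP-2, had the smallest p of all members. Its values were 391, 390.1 and 329 in the Res-T libraries and 969 and 976 in the Sus-T libraries. The Sus-T libraries differed by little from each other and lay far above the Res-T ones, a 2.63-fold difference (log2 1.40 ± 0.19, adjusted p = 5.87e-05).

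Ap2m1 (chr16:20535478-20544909, plus strand), the medium subunit that reads tyrosine sorting signals, stood at 414, 482 and 422 in Res-T and 854 and 678 in Sus-T (log2 0.80 ± 0.21, adjusted p = 0.00841). Ap2b1 (chr11:83299024-83405035, plus strand), the beta subunit that binds clathrin, stood at 829, 898 and 737 against 1391 and 1409 (log2 0.77 ± 0.20, adjusted p = 0.00918). In neither gene did the groups overlap. The remaining AP-2 subunits were not called: Ap2a1, the alpha-1 subunit, had a log2 difference of 0.43 ± 0.21 and Ap2s1, the small subunit, 0.20 ± 0.30. The median over the 5 AP-2 subunits was 0.77. Reads of Ap2m1 are uncertain, because 32.3% of its 31-base words occur in other annotated genes on the same strand, and Ap2a1 shares 15.1% with genes on the opposite strand.

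Ap1b1 (chr11:4986824-5042791, plus strand), the beta-1 subunit of AP-1, was 199, 235 and 238 in Res-T and 471 and 717 in Sus-T, 2.59-fold higher (log2 1.38 ± 0.32, adjusted p = 0.00416). Its lower Sus-T library was still well above all 3 Res-T libraries. No subunit of AP-3 (6 measured), AP-4 (3) or AP-5 (3) was called. Ap3b2, the neuronal beta subunit of AP-3, had a log2 difference of 0.58 ± 0.25 (adjusted p = 0.0914), and Ap3d1, its delta subunit, 0.36 ± 0.20.

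**Figure D1:**
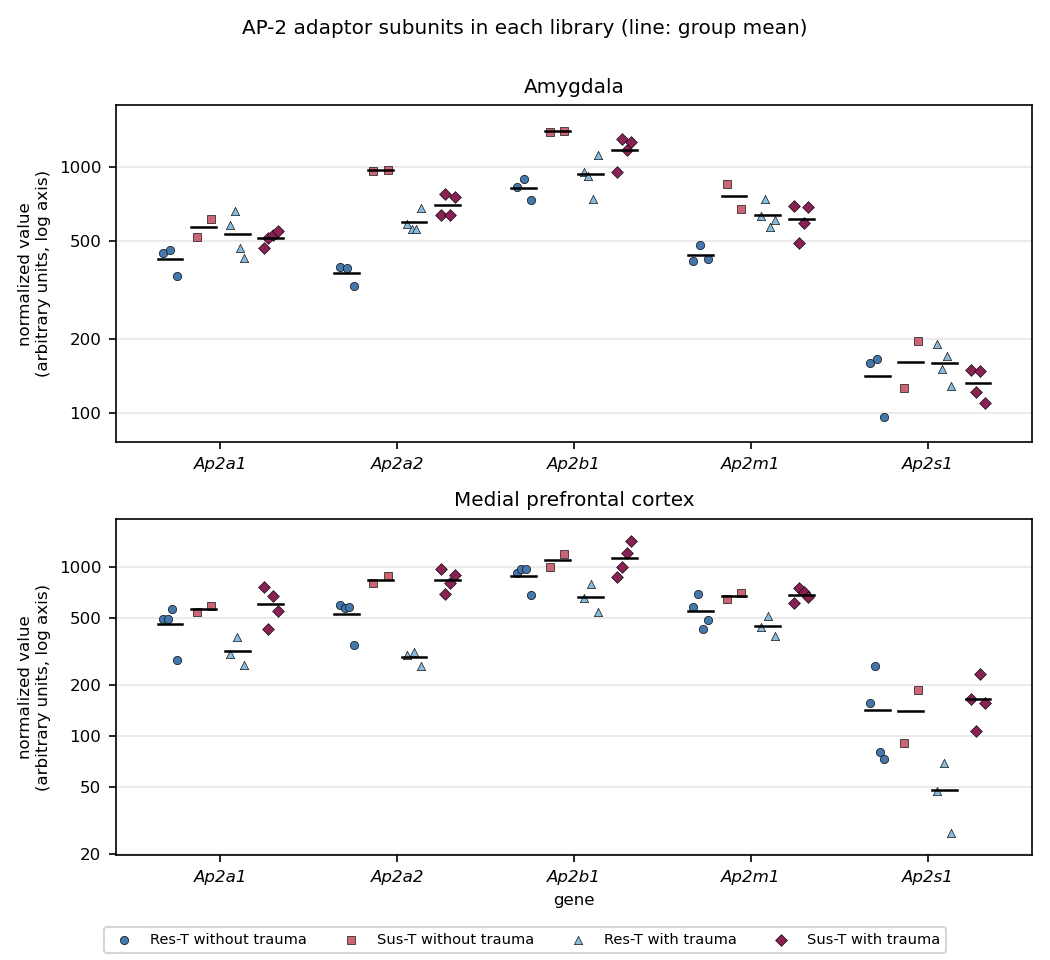
Normalized values (arbitrary units, log axis) of the 5 AP-2 subunit genes in each library, by group, in the amygdala (top) and the medial prefrontal cortex (bottom). Points are libraries and lines are group means. In the amygdala the Sus-T libraries without trauma are the highest for Ap2a2, at 969 and 976, and in the prefrontal cortex the Res-T libraries with trauma are the lowest, at 302, 314 and 260.4.

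Of 38 Rab GTPases in the amygdala, 7 were higher in Sus-T, 0 were lower and 31 were not called. Rab3c (chr13:110054187-110280996, minus strand), a Rab3 form of synaptic and secretory vesicles, had values of 61.5, 66.9 and 56.0 in Res-T and 339.8 and 253 in Sus-T. Both Sus-T libraries were several times the Res-T level, 4.72-fold by the fit (log2 2.24 ± 0.39, adjusted p = 0.000433). Rab6b (chr9:103111787-103185276, plus strand), the neuronal Rab6 form of Golgi transport, stood at 504, 704 and 617 against 1727 and 1259 (log2 1.29 ± 0.25, adjusted p = 0.000969).

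Rab22a (chr2:173659760-173707343, plus strand), which acts in sorting from early endosomes, rose from 239 ± 13.1 (SD, n = 3) to 439 ± 85.9 (SD, n = 2; adjusted p = 0.0317). Rab3a, the main Rab of synaptic vesicles, rose from 87.5 ± 11.6 to 172 ± 31.6 (adjusted p = 0.0387). Rab35 of fast endosomal recycling, Rab1a of transport from the endoplasmic reticulum to the Golgi, and Rab12 were also called, with log2 differences of 0.93, 0.69 and 0.71. In each of these 7 Rabs the groups did not overlap.

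The Rabs that define endosome identity were not called in this comparison. Rab5a and Rab5b of early endosomes had log2 differences of −0.39 ± 0.29 and −0.01 ± 0.25. Rab7 of late endosomes had 0.22 ± 0.21, though 16.3% of its 31-base words occur in other genes such as Rab7-ps1. Rab11a and Rab11b of recycling endosomes had 0.45 ± 0.21 and 0.48 ± 0.20, and Rab10, a Rab of exocytic and recycling traffic, −0.28 ± 0.29. The interval of these differences is wide, so a p that misses the threshold does not show equal levels.

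Among 8 regulators and effectors, 1 was higher and 1 lower. Rab11fip5, a Rab11 effector, had values of 46.9, 44.2 and 53.4 in Res-T and 65.1 and 269 in Sus-T, so its rise (log2 1.45 ± 0.47, adjusted p = 0.0297) rested largely on replicate 3. Rab3gap1 (chr1:127868773-127943868, plus strand), the catalytic subunit of the complex that switches Rab3 off, fell from 1066, 921 and 1205 to 554 and 611 (log2 −0.86 ± 0.23, adjusted p = 0.00897). Its groups did not overlap, and it moved opposite to the Rab3 genes named above. Of its 31-base words, 10.1% are shared with other genes.

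Of 24 Tbc1d genes, 3 were higher and 5 lower. Tbc1d9b (chr11:50131396-50172785, plus strand), a TBC-domain protein, stood at 340.0, 428 and 313 in Res-T and 859 and 1451 in Sus-T, 3.12-fold higher (adjusted p = 0.000657). Tbc1d1, known from glucose transporter traffic, rose from 31.4 ± 20.3 (SD, n = 3) to 116 ± 47.7 (SD, n = 2; adjusted p = 0.0046), and Tbc1d20, which acts on Rab1, from 153 ± 5.79 to 247 ± 46.4 (adjusted p = 0.0327). In these 3 genes the groups were apart.

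The falling Tbc1d genes were led by Tbc1d5 (chr17:50733124-51179352, minus strand), a retromer partner that acts on Rab7, with 1021, 1247 and 1182 in Res-T and 602 and 551 in Sus-T (log2 −0.99 ± 0.21, adjusted p = 0.00226). Tbc1d10b had a log2 difference of −0.82 ± 0.20, Tbc1d14, a Rab11 effector in autophagy, −0.73 ± 0.19, Tbc1d17 −1.06 ± 0.30 and Tbc1d13, which acts on Rab35, −0.999 ± 0.314. In all 5 genes the Sus-T libraries were below the Res-T libraries. Tbc1d17 shares 34.4% of its words with genes on the opposite strand and is uncertain.

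Sorting nexins divided into 1 higher and 5 lower of 27. Snx33 (chr9:56917193-56928371, minus strand), a membrane-bending nexin of the endocytic Snx9 family, was 563, 547 and 427 in Res-T and 127 and 163 in Sus-T, 3.51-fold lower (log2 −1.81 ± 0.25, adjusted p = 7.21e-05). Snx30 (chr4:59805840-59904737, plus strand), a nexin with a membrane-curving BAR domain, was 1298, 1467 and 1219 against 479 and 505 (log2 −1.43 ± 0.21, adjusted p = 0.000127). Snx1 (chr9:66088133-66126587, minus strand), the BAR-domain nexin that works with the retromer, was 556, 689.7 and 487 against 224 and 235 (log2 −1.32 ± 0.19, adjusted p = 0.000133).

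In these 3 nexins both Sus-T libraries lay far below every Res-T library. Snx29 and Snx32 fell as well, with log2 differences of −1.12 ± 0.30 and −0.82 ± 0.28. Snx10, which acts on endosomes, was the 1 nexin that rose, from 169 ± 15.2 (SD, n = 3) to 317 ± 22.4 (SD, n = 2; adjusted p = 0.0196). Snx27, which recycles receptors that carry a PDZ-binding tail, had 0.47 ± 0.23 and was not called.

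Of 32 Vps genes, 1 was called. Vps8 (chr16:21423118-21644680, plus strand), a subunit of the CORVET tether of early endosomes, was 650.4, 678 and 517 in Res-T and 319 and 384 in Sus-T (log2 −0.80 ± 0.20, adjusted p = 0.00664). The 6 retromer and retriever genes held 0 calls: Vps35, the retromer core, had −0.15 ± 0.29 and Vps26b 0.45 ± 0.24. Vps41 of HOPS had 0.20 ± 0.23, and no gene of the ESCRT (7 measured), GARP and EARP (5) or Vps13 (4) sets was called.

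**Figure D2:**
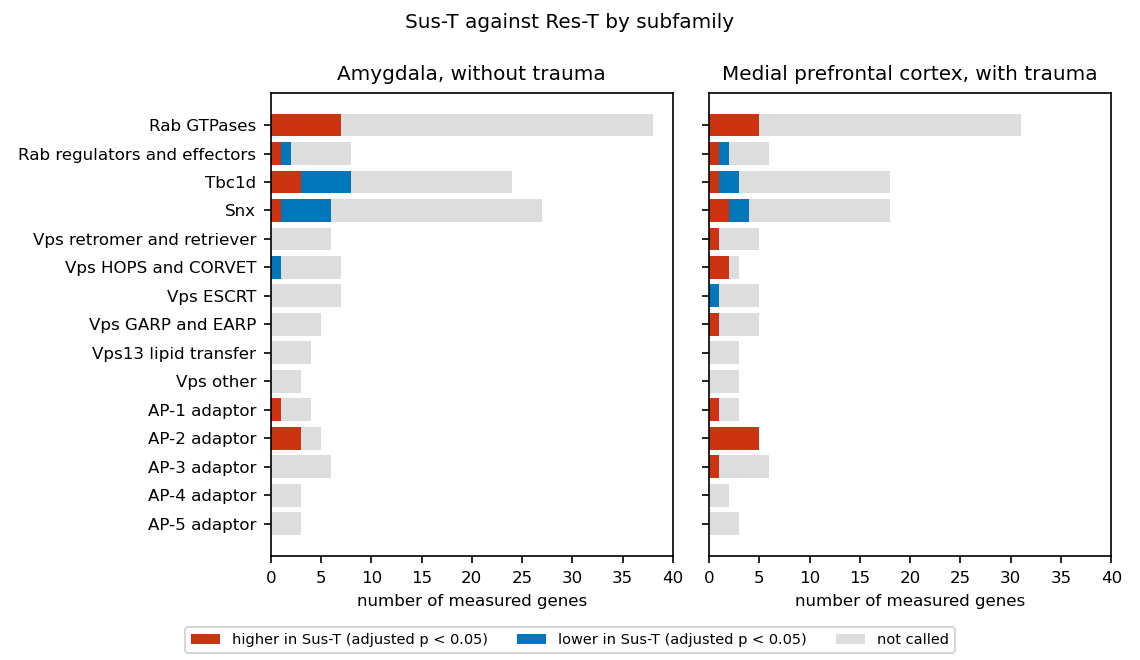
Number of measured genes in each subfamily that were higher in Sus-T, lower in Sus-T or not called (adjusted p under 0.05, limma), in the amygdala without trauma (left) and the medial prefrontal cortex with trauma (right). Bars start at 0. Rab GTPases show 7 and 5 higher with 0 lower, AP-2 shows 3 and 5 higher with 0 lower, and sorting nexins show 5 and 2 lower.

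A list of 165 other measured endosomal genes, from Rab activators to clathrin, ESCRT, retrieval and SNARE genes, gave 23 higher and 26 lower, with a median log2 difference of −0.12. Over all genes 12.4% were called higher and 15% lower, with a median of −0.03. Of 41 endocytic genes in that list 9 were higher and 9 lower. Snap91, the clathrin assembly protein AP180, rose from 229 ± 4.32 (SD, n = 3) to 820.0 ± 32.9 (SD, n = 2; adjusted p = 1.5e-05), and Epn1, the endocytic adaptor epsin, from 169 ± 17.8 to 569.9 ± 59.0 (adjusted p = 4.24e-05). Dnm3, a dynamin, was lower, with a log2 difference of −1.25 ± 0.21. Of 46 Rab-cycle genes 8 rose and 5 fell: Sgsm2, which switches Rabs off, had 2.28 ± 0.35, Madd, an exchange factor for Rab3, 1.47 ± 0.23, and Micall1, a Rab effector of recycling tubules, −1.75 ± 0.22. Of 26 ESCRT and phosphoinositide genes 1 rose and 6 fell, among them Mtmr2, a phosphoinositide phosphatase, with −1.76 ± 0.25 and Pdcd6ip, the ESCRT partner ALIX, with −1.13 ± 0.18.

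Other cell types' markers moved in the same comparison. Of 17 oligodendrocyte markers 15 were lower in Sus-T and 0 higher, and of the astrocyte markers 6 of 12 and of the microglia markers 3 of 3 were higher. Of 5 oligodendrocyte precursor markers, Pdgfra was called higher (log2 1.81 ± 0.37) and Enpp6, Olig1 and Olig2 were called lower. Among 6 endothelial and mural markers Col1a2 was called higher (2.94 ± 0.60) and Kdr lower (−2.86 ± 0.66). Among 2 interneuron markers Erbb4 was called lower (−0.73 ± 0.22) and Dlx1 was not called. Camk2n1 and Nrgn, the 2 pyramidal neuron markers measured, were both called higher, with means of 171 and 14.6 in Res-T and 1503 and 129.7 in Sus-T. Camk2a, a calcium-dependent kinase abundant in excitatory neurons, was 55.4, 77.3 and 68.4 in Res-T and 1656 and 2965 in Sus-T, higher by 5.04 on the log2 scale. The part of these markers in the member differences was not tested beyond the next fit. With the mean of the oligodendrocyte markers added to the fit, 2 members were called (Rab11fip5 and Tbc1d9b) in place of 28, and 0.608% of all genes in place of 27.4%. Rab11fip5, whose rise rested largely on replicate 3, stood at 4.90 ± 0.91 (1.45 ± 0.47 without the covariate). Tbc1d9b stood at 3.27 ± 0.70 (1.64 ± 0.30). Of the 28 differences, 11 were then at least as large, 12 were smaller in the same direction and 5 turned sign, while their median standard error went from 0.25 to 0.67. The oligodendrocyte shares of the 2 groups did not overlap (6.13% to 7.20% and 1.93% to 2.89%). Group and share therefore cannot be told apart in this comparison, with or without the covariate. Ap2a2 stood at 1.36 ± 0.50 (1.40 ± 0.19 without the covariate), Snx30 at −1.46 ± 0.57 (−1.43 ± 0.21), Snx33 at −0.76 ± 0.62 (−1.81 ± 0.25) and Rab6b at 0.33 ± 0.63 (1.29 ± 0.25). With library totals set equal the calls were 27 higher and 10 lower, and the median of all genes moved from −0.03 to 0.17. Without Sus-T replicate 1 the count was 11 (15.9% of all genes), without Sus-T replicate 3 it was 18 (18.7%) and without Res-T replicate 1 it was 17 (21.2%), where a lone Sus-T library takes its spread from the other groups.

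With trauma, Sus-T against Res-T in the amygdala gave 0 called members of 150, as over all genes (0%), with 17 members and 1142 genes at an unadjusted p under 0.05 (limma). The smallest p belonged to Rab6b, with 895, 650.2, 881 and 993 in Res-T and 1842, 1074, 1486 and 1610.0 in Sus-T. Its Sus-T libraries all lay above the Res-T libraries, and the log2 difference was 0.80 ± 0.19 (adjusted p = 0.114). Tbc1d9b had 0.79 ± 0.23 and Snx33 −0.60 ± 0.19, with adjusted p of 0.189 and 0.235. The oligodendrocyte shares of these groups overlapped.

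The trauma comparison within Res-T mice of the amygdala called 4 members, 2 higher and 2 lower, which is 2.67% beside 6.18% of all genes (3.3% higher and 2.88% lower). Snx30 was 1298, 1467 and 1219 without trauma and 660.0, 569, 664 and 937 with trauma, all 4 below the lowest library without trauma (log2 −0.93 ± 0.18, adjusted p = 0.01). Rab3c went from 61.5, 66.9 and 56.0 to 158, 263, 150.3 and 179 (log2 1.56 ± 0.32, adjusted p = 0.0118). Ap2a2 went from 391, 390.1 and 329 to 586, 562, 559 and 682 (log2 0.69 ± 0.16, adjusted p = 0.0164).

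Ap1g2, the gamma-2 subunit of AP-1, was the fourth call and a low gene, at 26.4, 28.0 and 32.8 without trauma and 3.99, 9.92, 5.66 and 9.26 with trauma (log2 −1.94 ± 0.47, adjusted p = 0.0225). In these 4 genes no library of one group reached into the other. Over all 150 members the libraries with trauma lay wholly above in 8 (5.33%, beside 9.68% of all genes) and wholly below in 13 (8.67%, beside 13.5%). Of the 165 other endosomal genes 6 rose and 8 fell, where 3.3% of all genes rose and 2.88% fell. Among them were Snap91 with 0.81 ± 0.15, Nsf, the ATPase that recycles SNAREs, with 1.18 ± 0.29, and Mical3, a Rab8 effector, with −1.09 ± 0.18. This comparison shares its Res-T libraries without trauma with the Sus-T comparison above. Without replicate 1, 2 or 3 of those libraries 1, 2 and 2 members were called. With totals set equal the calls were 6 higher and 2 lower. With the oligodendrocyte covariate 6 members were called, beside 6.73% of all genes (6.18% without it). Of the 17 oligodendrocyte markers all had negative differences, 1 of them called (Aspa, median −0.45). Of 5 precursor markers Enpp6 was called lower, and Pdgfra was positive (0.97) and not called. The astrocyte marker Mlc1, Camk2n1 and Camk2a (log2 2.70 ± 0.49) were called higher.

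Within Sus-T mice of the amygdala, trauma called 0 members, beside 0.0304% of all genes, with 15 members and 1168 genes at an unadjusted p under 0.05 (limma). Snx1 had the smallest p, with 224 and 235 without and 391, 379, 335 and 365 with trauma (log2 0.68 ± 0.18, adjusted p = 0.118). All 4 libraries with trauma were above both without. Among all members 57 of 150 had a positive difference, beside 49.4% of all genes, and the median was −0.13, beside −0.01. The libraries with trauma lay wholly above in 13 members (8.67%, beside 12.6% of all genes) and wholly below in 24 (16%, beside 7.77%). Snx33 had 0.77 ± 0.24 and Tbc1d13 0.93 ± 0.30. Without Sus-T replicate 3 without trauma, Tbc1d13 was called at a log2 difference of 1.41.

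The difference of the trauma effects, Sus-T minus Res-T, was itself tested and called 4 members, 2.67% beside 6.74% of all genes (4.76% positive and 1.98% negative). Snx30 (log2 1.45 ± 0.26, adjusted p = 0.00551), Snx1 (1.22 ± 0.25, adjusted p = 0.00851) and Snx33 (1.21 ± 0.31, adjusted p = 0.0298) had a more positive trauma effect in Sus-T than in Res-T. Ap2a2 had a more negative one (−1.16 ± 0.24, adjusted p = 0.00851). The groups lay closer together with trauma than without. Snx30 averaged 1328 ± 127 (SD, n = 3) in Res-T and 492 ± 18.4 (SD, n = 2) in Sus-T without trauma, and 707 ± 159 and 709.6 ± 69.9 (SD, n = 4 each) with trauma. Of the 165 other endosomal genes 7 were called positive and 5 negative, beside 4.76% and 1.98% of all genes. They were led by Micall1 at 1.42 ± 0.28 and Snap91 at −1.47 ± 0.23. Of the 17 oligodendrocyte markers 14 were called positive (median 1.69), while Camk2a (−3.10 ± 0.73) was called negative. Of 5 precursor markers Enpp6 was called positive, and Pdgfra was negative (−1.10) and not called. Of 6 endothelial and mural markers Col1a2 was called negative, and the other 5 were positive and not called. With the oligodendrocyte covariate 0 members were called, beside 0.0203% of all genes. Snx30 then stood at 1.48 ± 0.53, Ap2a2 at −1.14 ± 0.47, Snx1 at 0.84 ± 0.47 and Snx33 at 0.31 ± 0.57. Without Sus-T replicate 1 without trauma the member count was 0 (0.598% of all genes), with quantile normalization 5 (3 positive and 2 negative) and with totals set equal 7 (2 positive and 5 negative).

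In the prefrontal cortex the Sus-T and Res-T groups differed with trauma. All 5 AP-2 subunits, Ap1b1, Ap3b2 and 5 of 31 Rab GTPases, among them Rab6b and Rab6a, were higher in Sus-T, and Snx33, Snx30 and Tbc1d5 were lower. Of 116 members 26 were called, 20 higher and 6 lower, which is 22.4% beside 23% of all 6080 genes (14% higher and 8.93% lower). The share of members thus lay at that of the whole table. Their median log2 difference was 0.21, beside 0.15 over all genes, and 32 members had every Sus-T library above every Res-T library and 16 below, where all genes gave 24.4% and 16.3%.

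Of 19 adaptor subunits 7 were higher and 0 lower. Ap2a2 had values of 302, 314 and 260.4 in the Res-T libraries and 971, 691, 804 and 892 in the Sus-T libraries. All 4 Sus-T libraries lay far above the 3 Res-T libraries, and the fit gave 2.86-fold (log2 1.51 ± 0.22, adjusted p = 0.00129). Ap2s1 (chr7:16738410-16749294, plus strand), the small subunit, was 47.0, 69.3 and 26.6 against 166, 108, 234 and 156 (log2 1.83 ± 0.46, adjusted p = 0.0109).

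Ap2b1 (655, 789.5 and 539.7 against 867, 998, 1214 and 1426) had a log2 difference of 0.76 ± 0.21 (adjusted p = 0.0187). Ap2a1 (305, 385 and 264 against 766, 428, 677 and 549.7) had 0.91 ± 0.26 (adjusted p = 0.0194), and Ap2m1 (442, 515 and 388 against 611, 748, 711 and 662) had 0.61 ± 0.20 (adjusted p = 0.0353). The 5 subunits had a median of 0.91, and in none did the groups overlap. Ap2a2 was called in all 7 fits that left out 1 library of these groups, while the call of Ap2m1 was lost in 5 of 7 such fits.

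Ap1b1 was 159, 223 and 127 in Res-T and 589.7, 583, 515 and 681 in Sus-T (log2 1.83 ± 0.32, adjusted p = 0.00236), a difference of 3.55-fold. Ap3b2 (chr7:81460399-81493925, minus strand) was 112, 146 and 113 against 286, 269, 253 and 254 (log2 1.10 ± 0.29, adjusted p = 0.0132). In both genes every Sus-T library lay above the Res-T range. Ap3d1 had 0.22 ± 0.20 and was not called, nor was any of the 2 AP-4 and 3 AP-5 subunits.

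Of 31 Rab GTPases 5 were higher and 0 lower. Rab6b was 443, 735 and 417 in Res-T and 1575, 1810.0, 2143 and 1905 in Sus-T, 3.59-fold (log2 1.84 ± 0.36, adjusted p = 0.00349). Its relative Rab6a, the widely expressed form, was 480.1, 615 and 423 against 798, 819, 1094 and 1331 (log2 0.98 ± 0.28, adjusted p = 0.0198). Both stood apart between groups, though 18.2% of the words of Rab6a are shared with opposite-strand genes.

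Rab5c of early endosomes was 122, 174 and 78.4 against 397, 173, 293 and 246, and Rab22a was 191, 244 and 145 against 218, 419, 391 and 389. Both were called (adjusted p = 0.025 and 0.0349) although 1 Sus-T library of each lay within the Res-T range. Rab3d, a secretory granule Rab, was low throughout, at 5.15, 1.70 and 9.29 against 55.5, 17.5, 17.0 and 20.7 (adjusted p = 0.0319). Rab5a, Rab5b, Rab7, Rab11b and Rab10 were not called, with log2 differences of 0.20 ± 0.22, 0.52 ± 0.25, 0.42 ± 0.19, 0.33 ± 0.20 and −0.28 ± 0.27.

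Among 6 regulators and effectors, Rab11fip4, a Rab11 effector, was higher and Rab3gap1 lower. Rab11fip4 was 433, 529.5 and 521 in Res-T and 1198, 926, 1125 and 792 in Sus-T (adjusted p = 0.0131). Rab3gap1 was 1001, 916 and 1297 against 814, 659, 631 and 465 (log2 −0.75 ± 0.23, adjusted p = 0.0276). Neither pair of groups overlapped.

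Of 18 Tbc1d genes 1 was higher and 2 lower. Tbc1d9 (chr8:83165352-83272934, plus strand), a TBC-domain protein, had values of 46.6, 81.5 and 22.6 in Res-T and 376, 415, 287 and 236 in Sus-T, the largest log2 difference of any called member here (2.83 ± 0.53, adjusted p = 0.00297). It shares 13.4% of its words with opposite-strand genes. Tbc1d23, which links endosome-derived carriers to the trans-Golgi network, was 327, 348 and 327 against 111, 244, 127 and 131 (adjusted p = 0.0103), with 1 Sus-T library near the Res-T level. Tbc1d5 was 780.4, 999 and 734 against 516, 483, 466 and 660.4 (log2 −0.66 ± 0.19, adjusted p = 0.0229).

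Sorting nexins gave 2 higher and 2 lower of 18. Snx33 was 385, 316 and 384 in Res-T and 81.1, 126, 124 and 149 in Sus-T, 3.06-fold lower (log2 −1.61 ± 0.39, adjusted p = 0.00881). Snx30 was 884, 819.9 and 909 against 468, 464, 533 and 695 (log2 −0.71 ± 0.23, adjusted p = 0.0334). For both, all Sus-T libraries were below all Res-T libraries.

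Snx27 was higher in Sus-T, 413, 578 and 373 against 652, 812, 813 and 790.1 (log2 0.77 ± 0.23, adjusted p = 0.023). Snx25, a nexin known from receptor degradation, rose from 23.3 ± 8.58 (SD, n = 3) to 144 ± 55.9 (SD, n = 4; adjusted p = 0.0147), a change from a low level. In both genes the groups were apart.

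Of 24 Vps genes 4 were higher and 1 lower. Vps26b (chr9:27007771-27030065, minus strand), a retromer subunit enriched in brain, was 146, 187 and 122 in Res-T and 258, 285, 272 and 365 in Sus-T (log2 0.97 ± 0.25, adjusted p = 0.0125). The HOPS subunits Vps33a and Vps41 were higher, with log2 differences of 0.92 ± 0.27 and 0.66 ± 0.23, as was Vps50 of EARP with 0.74 ± 0.25. Vps37a of ESCRT-I was lower, with −0.67 ± 0.19. Vps35, the partner of Vps26b in the retromer, was 714 ± 42.7 (SD, n = 3) and 689 ± 49.4 (SD, n = 4) and was not called.

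Of 113 other endosomal genes 16 were higher and 12 lower, with a median log2 difference of 0.06. Over all genes 14% were called higher and 8.93% lower, with a median of 0.15. Nsf had 2.12 ± 0.35, Synj1, which uncoats endocytic vesicles, 1.11 ± 0.23, Exoc6 of the exocyst 2.65 ± 0.57 and Sgsm2 1.998 ± 0.469. Among 28 endocytic genes 4 rose and 8 fell. Those that fell included Picalm, a clathrin assembly protein, with −1.08 ± 0.23, Itsn2, an endocytic scaffold, with −0.92 ± 0.18, Dnm3 with −0.98 ± 0.22 and Fcho2, an early nucleator of coated pits, with −0.91 ± 0.24.

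In this comparison 8 of 11 oligodendrocyte markers were lower in Sus-T and 0 higher, and 0 of 9 astrocyte markers were called. Of 2 precursor markers Pdgfra was called higher (log2 1.72 ± 0.28) and Olig1 was not called. The interneuron marker Erbb4 and the endothelial marker Vwf were not called. With the oligodendrocyte covariate 0 members were called in place of 26, and 0% of all genes in place of 23%. All 26 differences kept their direction, 4 were at least as large and 22 were smaller, and their median standard error went from 0.27 to 0.37. Here too the shares of the groups did not overlap (5.26% to 7.35% and 2.61% to 4.45%), so group and share cannot be told apart. Vps26b stood at 0.97 ± 0.36 (0.97 ± 0.25 without the covariate), Rab6a at 1.08 ± 0.40 (0.98 ± 0.28), Ap2a2 at 1.16 ± 0.28 (1.51 ± 0.22) and Snx30 at −0.15 ± 0.26 (−0.71 ± 0.23). Without Res-T replicate 1 the count was 8 (10.3% of all genes), without Res-T replicate 4 it was 10 (11%) and without Sus-T replicate 3 it was 15 (14.6%).

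**Figure D3:**
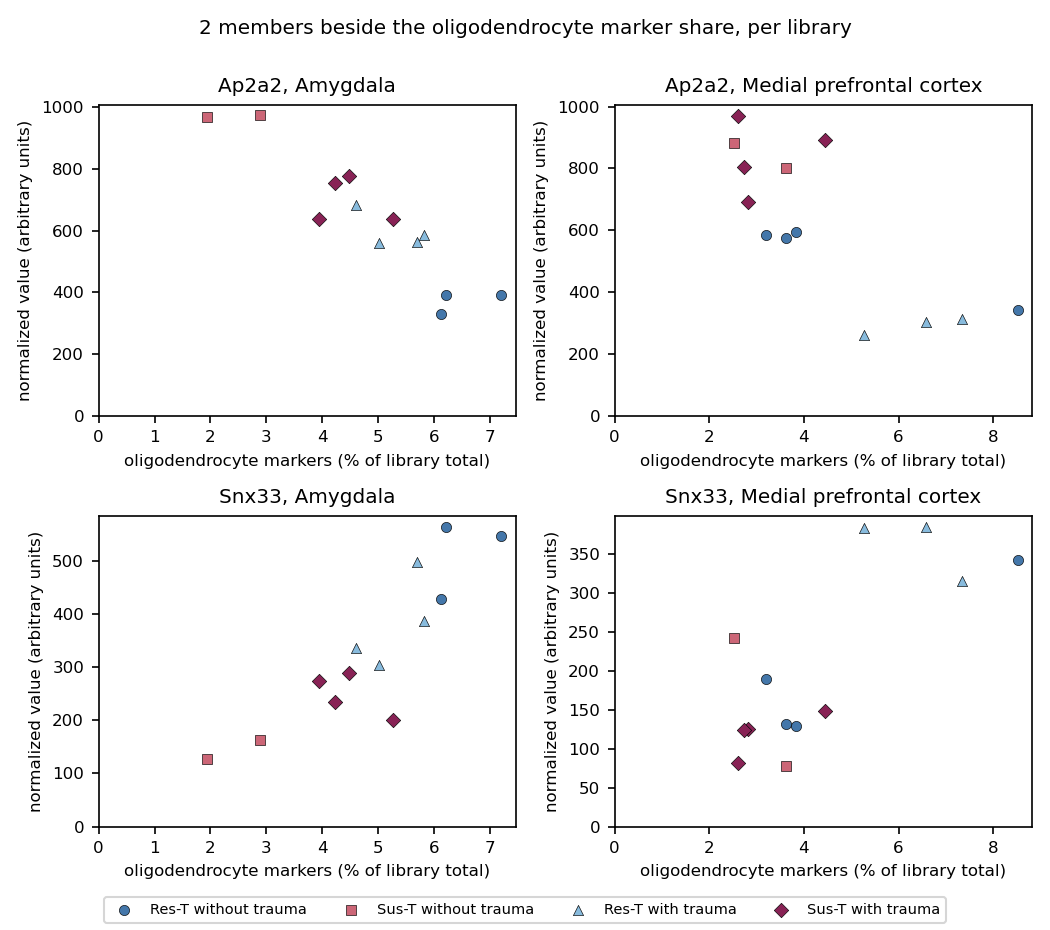
Normalized values of Ap2a2 (top) and Snx33 (bottom) against the summed oligodendrocyte markers as a percentage of the library total, in the amygdala (left) and the medial prefrontal cortex (right), 1 point per library. Axes start at 0. The prefrontal library with the largest share (8.52%, Res-T without trauma) had an Ap2a2 value of 343. The 3 Res-T libraries with trauma stood at 302, 314 and 260.4, with shares of 5.26% to 7.35%. The other prefrontal Res-T libraries without trauma stood at 575 to 595, with shares of 3.19% to 3.84%. The prefrontal Sus-T library with trauma of the largest share, 4.45%, stood at 892.

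These 2 genes were chosen for that plot after their values were seen. In amygdala Res-T without trauma, shares of 6.22%, 7.20% and 6.13% stood beside Ap2a2 values of 391, 390.1 and 329. In prefrontal Res-T with trauma, shares of 6.59%, 7.35% and 5.26% stood beside Ap2a2 values of 302, 314 and 260.4. In prefrontal Sus-T with trauma, shares of 2.61%, 2.82%, 2.73% and 4.45% stood beside 971, 691, 804 and 892. Without trauma, Sus-T shares of 3.63% and 2.52% stood beside 802 and 883. In prefrontal Res-T without trauma, replicate 4 had an Ap2a2 value of 343, and the other 3 libraries lay between 575 and 595. The same library had 378 for Rab6b, below all 3 Res-T libraries with trauma, and 56.0 for Tbc1d9, within their range. The relation across libraries was not tested.

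Without trauma, the prefrontal groups gave 0 called members, beside 0% of all genes, with 14 members and 630 genes at an unadjusted p under 0.05 (limma). Ap2a2 was 595, 575, 584 and 343 in Res-T and 802 and 883 in Sus-T (log2 0.72 ± 0.25, adjusted p = 0.359). Both Sus-T libraries were above all 4 Res-T libraries. Tbc1d32, a ciliary gene, had −1.17 ± 0.37 and Ap3m2, the neuronal medium subunit of AP-3, 1.46 ± 0.47, both with an adjusted p of 0.325.

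Trauma in prefrontal Res-T mice gave 0 called members, beside 0% of all genes, with 10 members and 899 genes at an unadjusted p under 0.05 (limma). Tbc1d9 was 296, 222, 402 and 56.0 without and 46.6, 81.5 and 22.6 with trauma (log2 −2.13 ± 0.53, adjusted p = 0.169). Replicate 4 without trauma lay among the libraries with trauma, and the other 3 lay far above them. Ap2a2 had −0.81 ± 0.22 and Ap2s1 −1.47 ± 0.46. Without replicate 4, 8 of 116 members were called, beside 9.67% of all genes in that fit, 2 higher and 6 lower with trauma: Rab4a and Snx33 were higher, and Tbc1d9, Ap2a2, Ap2s1, Ap1b1, Rab6b and Tbc1d2b were lower.

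Trauma in prefrontal Sus-T mice gave 0 called members, beside 0% of all genes, with 1 member and 91 genes at an unadjusted p under 0.05 (limma). Ap2a2 was 842 ± 57.3 (SD, n = 2) without and 839.5 ± 120.4 (SD, n = 4) with trauma, a log2 difference of −0.01 ± 0.25. The smallest p belonged to Tbc1d12 (1.48 ± 0.54), Ap4m1 (−1.19 ± 0.67) and Tbc1d32 (0.66 ± 0.37). The difference between the trauma effects gave 0 called members, beside 0% of all genes, with 3 members and 371 genes at an unadjusted p under 0.05 (limma). Its smallest p belonged to Ap2s1 (1.76 ± 0.70), Tbc1d9 (1.98 ± 0.80) and Ap2a2 (0.80 ± 0.33), all at an adjusted p of 0.774.

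The comparisons with calls came from different conditions, without trauma in the amygdala and with trauma in the prefrontal cortex, and share no library. Of the 109 members measured in both regions, 23 were called in the amygdala and 24 among prefrontal values. Both called 10, which is 43.5% of the first and 41.7% of the second, and over all 5274 genes measured in both regions the shares were 51% and 55.1%. Ap1b1, Ap2a2, Ap2b1, Ap2m1, Rab22a and Rab6b were higher in Sus-T in both, Rab3gap1, Snx30, Snx33 and Tbc1d5 were lower in both, and 0 members were called in opposite directions. The sign was the same in 76.1% of the members and 76.2% of all genes, and the log2 differences correlated across the 109 members with r = 0.56, beside 0.67 across all genes, as a description of genes that share libraries within each region. The regions were tabled apart and were not tested against each other.

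**Figure D4:**
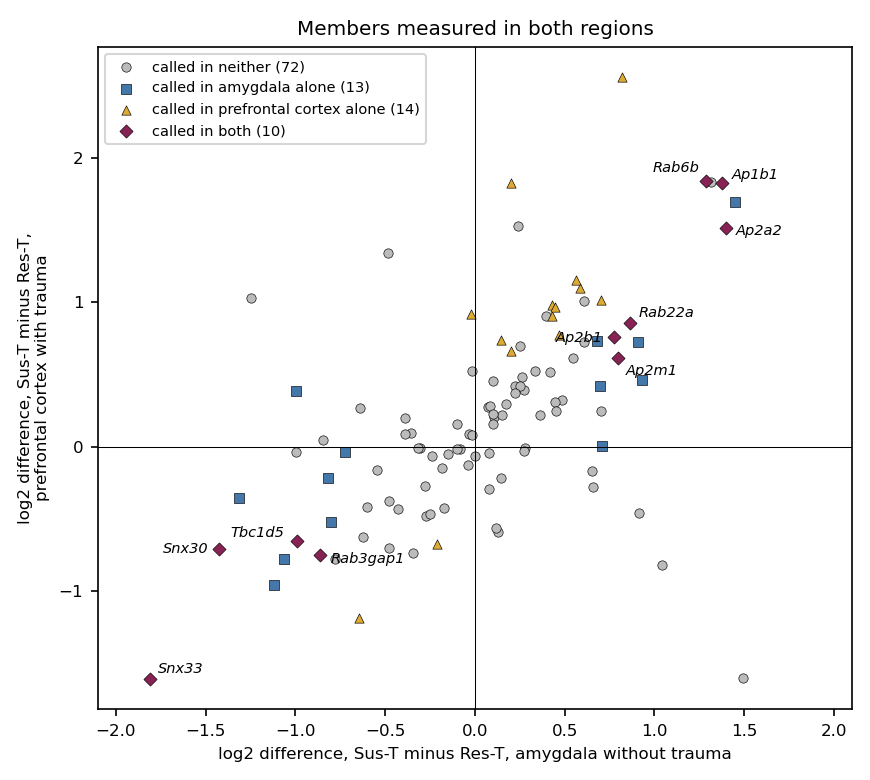
Log2 difference, Sus-T minus Res-T, of the 109 members measured in both regions, in the amygdala without trauma (horizontal) and the medial prefrontal cortex with trauma (vertical). Symbols show in which region a member was called (adjusted p under 0.05), and the 10 called in both are named, 6 in the upper right and 4 in the lower left.

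The order of the group means differed between the regions for both of these genes. In the amygdala, Snx33 averaged 512 ± 74.2 (SD, n = 3) in Res-T without trauma, 381 ± 84.7 (SD, n = 4) in Res-T with trauma, 249.0 ± 39.96 (SD, n = 4) in Sus-T with trauma and 145 ± 25.4 (SD, n = 2) in Sus-T without trauma. Ap2a2 stood in the reverse order, at 370.1 ± 35.3, 597 ± 57.7, 702 ± 74.5 and 972 ± 5.09. Neighbours in that order that were called apart were Res-T without and with trauma for Ap2a2. The other neighbours of both genes were not called apart. The mean oligodendrocyte share fell in the same group order as Snx33, at 6.52%, 5.29%, 4.48% and 2.41%. Over the same groups the mean astrocyte share rose, at 0.665%, 0.948%, 1.54% and 1.89%, and so did the microglia share, at 0.00735%, 0.0139%, 0.0207% and 0.0247%. The precursor, endothelial and mural, pyramidal neuron and interneuron shares followed neither order. The part of these shares in the orders was not tested.

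In the prefrontal cortex, Ap2a2 averaged 292 ± 27.9 (SD, n = 3) in Res-T with trauma, 524 ± 121 (SD, n = 4) in Res-T without trauma, and 839.5 ± 120.4 (SD, n = 4) and 842 ± 57.3 (SD, n = 2) in Sus-T with and without trauma. Snx33 averaged 362 ± 39.3, 198.3 ± 99.96, 120.0 ± 28.2 and 159.9 ± 116 in the same groups. Of the comparisons tested between these groups, Res-T against Sus-T with trauma was called for both genes and the others were not. The mean oligodendrocyte share in the groups as listed was 6.4%, 4.79%, 3.15% and 3.08%, and its part was not tested.

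**Figure D5:**
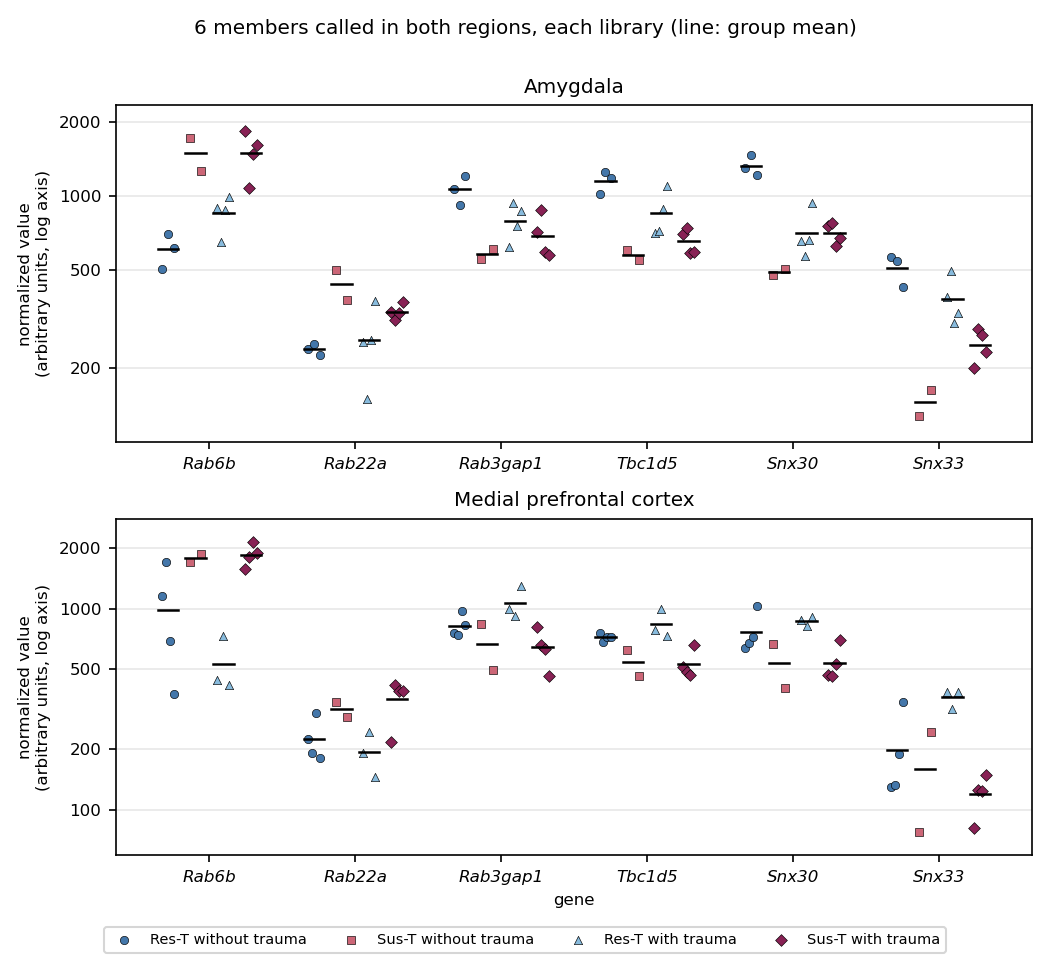
Normalized values (arbitrary units, log axis) of 6 of the 10 members called in both regions, in each library, in the amygdala (top) and the medial prefrontal cortex (bottom). Points are libraries and lines are group means. Amygdala Snx33 runs from 127 and 163 in Sus-T without trauma to 563, 547 and 427 in Res-T without trauma, and prefrontal Snx33 is highest in Res-T with trauma, at 385, 316 and 384.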

How the data were processed

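Sorted fluorescent neurons of both regions were sequenced after ribosomal RNA was removed, per the labels' protocols. Per the submitters' processing notes, bcl2fastq 2.20 and Salmon 1.2 were used with GRCm38.p6. The authors deposited 1 normalized signal per gene and library; the method is not given in the sources used here. On the log2(value − 1) scale, centred by gene, they lack 1 dimension among amygdala and 2 among prefrontal libraries, so the spread between libraries, and with it p, may be too small. The smallest values were 1.35 and 1.26.

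Symbols and coordinates came from GENCODE M21 (9871 of 9872 and 6080 of 6080 identifiers matched). The groups of a region were fitted together with limma 3.58.1 in R 4.3.3 on log2(value + 1), with trend and robust moderation and 9 residual degrees of freedom. A filter on means of at least 1 removed 0 genes. The members and lists were chosen with earlier results of these data known. Genes named are, per subfamily, up to 4 called members in each direction with the smallest p, the 3 smallest where none was called, fixed Rab, Vps, Snx and adaptor genes, up to 4 other endosomal genes in each direction, and Camk2a and Mbp (Mbp: log2 −0.61 in the amygdala without trauma and −0.48 in the prefrontal cortex with trauma, neither called). Rab35, Rab1a, Rab12, Tbc1d13, Snx32, Rab4a, Tbc1d2b and prefrontal Rab22a and Ap2m1 were named after their values were seen. On simulated data the fit recovered 16% to 44% of 2-fold and 65% to 88% of 4-fold changes over 9872 or 6080 genes. Alternatives were quantile normalization, equal library totals, a pseudocount of 10, a mean of at least 50, a replicate block, the 2 compared groups alone, an oligodendrocyte covariate and leaving out each library. Shared 31-base words were counted over the annotated transcripts.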

Additional observations from a re-analysis of the deposited data

Results flagged for a closer look

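In groups of 4 libraries, a library that stood apart from the other 3 by Dixon's 95% criterion was looked for among the named members. This held in 14 of 146 groups, where chance gives about 1 in 20.

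In the prefrontal cortex, Res-T without trauma replicate 4 was low for Ap2a2 (343, the others 575 to 595), Vps26b (155, the others 222 to 233) and Vps33a (155, the others 224 to 234). This library also had the largest oligodendrocyte share of its region, 8.52%; the part of that share in these values was not tested. Replicate 2 of the same group was high for Rab5a (643, the others 575 to 584) and Vps41 (460.4, the others 366 to 367). Sus-T with trauma replicate 1 was high for Rab3d (55.5, the others 17.0 to 20.7) and low for Snx27 (652, the others 790.1 to 813), and replicate 2 was high for Tbc1d23 (244, the others 111 to 131).

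In the amygdala, Res-T with trauma replicate 2 was low for Rab11a (338, the others 397 to 409), Rab5a (325, the others 588 to 632) and Vps41 (327, the others 482 to 514). Replicate 4 of that group was high for Tbc1d9b (812, the others 582 to 619). Sus-T with trauma replicate 2 was high for Snx29 (198, the others 149 to 156) and Tbc1d13 (184, the others 129 to 136).

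The trauma effect in the amygdala differed between Sus-T and Res-T for 4 members by the test of the difference itself (limma). It was more negative in Sus-T for Ap2a2 (log2 −1.16, adjusted p = 0.00851). It was more positive for Snx30 (1.45, adjusted p = 0.00551), Snx1 (1.22, adjusted p = 0.00851) and Snx33 (1.21, adjusted p = 0.0298). The Sus-T group without trauma held 2 libraries, and without its replicate 1 the number called was 0.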

How the results depend on the processing

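Counts of called members moved as follows. The share of all genes called in the same fit is given in the Results for some of these counts. Where it is not given, a changed count of members cannot be told apart from a change of the whole table. Without trauma in the amygdala 28 were called. The oligodendrocyte covariate left 2, with 5 members turning sign: Rab22a to −0.56, Snx10 to −0.0192, Snx29 to 0.32, Tbc1d13 to 0.98 and Tbc1d17 to 0.15. Another 11 of the 28 differences were at least as large with it, such as Ap1b1 (3.10), Rab35 (1.94), Snx30 (−1.46) and Tbc1d5 (−1.33), and 12 were smaller in the same direction. The median standard error of the 28 went from 0.25 to 0.67. The oligodendrocyte shares of the compared groups did not overlap, so this fit cannot tell group from share. Leaving out 1 library gave 11 to 22. For trauma in Res-T of the amygdala (4 called) equal totals gave 8 and leaving out 1 library 1 to 4. For trauma in Sus-T (0 called) leaving out 1 library gave 0 to 1. For the difference of the trauma effects (4 called) equal totals gave 7, the covariate 0 and leaving out 1 library 0 to 6. With trauma in the prefrontal cortex (26 called) the covariate gave 0 and leaving out 1 library 8 to 22. For trauma in prefrontal Res-T (0 called) leaving out 1 library gave 0 to 8. The other counts of 0 were 0 under every alternative run, and the cause of these changes was not tested.

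With the replicate number as a block, the prefrontal count with trauma was 17 and the amygdala count without trauma was 23. Same-numbered libraries of different groups gave amygdala correlations of −0.45 to 0.16 and prefrontal ones of −0.40 to 0.35, with 3 of 16 pairs above 0.1 in each region. Libraries of different number gave −0.45 to 0.45 and −0.60 to 0.57, with 12 and 15 of 46 pairs above 0.1. These are correlations of deviations from group means, which cancel out within a group and mirror each other where a group holds 2 libraries. They cannot decide whether the numbers pair the libraries. Fitting the 2 compared groups alone gave 38 and 36.

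Of the 28, 4, 4 and 26 calls of these comparisons, 15 held under every alternative run apart from the covariate. Among them were Ap2a2, Rab6b and Snx33 in both regions, Ap1b1 and Tbc1d9 in the prefrontal cortex, and Rab3c, Snx30 and Snx1 in the amygdala without trauma. No call on the difference of the trauma effects was among them. With the covariate 2, 3, 0 and 0 of the main calls stayed called, in the order above. How many calls held over all genes was not counted. Under quantile normalization the median of all genes with trauma in the prefrontal cortex moved from 0.15 to −0.01, and 16 members were higher and 7 lower. The read depth is unknown, so no precision from counting can be given for low members such as Rab3d and Ap1g2.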
